A study of Homo sapiens with 15 samples.

Results

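The genes described here encode enzymes that make serine, split it into glycine and a one-carbon unit, carry that unit through the folate cycle, and make asparagine. They are PHGDH, PSAT1 and PSPH (serine synthesis), SHMT1 and SHMT2 (serine and glycine conversion), MTHFD1, MTHFD2, MTHFD1L and ALDH1L2 (handling of folate-bound one-carbon units) and ASNS (asparagine synthesis). They were taken from a list of gene names. All 10 had a transcript cluster of their own on the array, out of 18417 gene symbols measured, and all 10 were among the 16872 genes bright enough to be tested. PSPH and MTHFD2 had a second cluster each, and for these genes the cluster with the higher mean was used.

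Serine is built in the cytosol from a glycolytic intermediate, and its conversion to glycine loads a one-carbon unit onto tetrahydrofolate. The cytosol and the mitochondrion hold separate sets of these folate enzymes, and cells use the units for purine and thymidylate synthesis, for methylation and for the redox balance of NADP. Many of the serine, mitochondrial folate and asparagine enzymes are known to be switched on by ATF4, a factor that cells make when amino acids run short or the endoplasmic reticulum is under stress.

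Expression was measured in MH7A, an established human synovial cell line, on 15 Affymetrix Human Gene 1.0 ST arrays. The 5 conditions were resting cells, cells stimulated with IL-1β at 15 pg/ml for 13 h, and cells that received glucosamine (GlcN), alloxan or both agents besides the same IL-1β. All were kept in serum-free medium. GlcN was present at 5 mM from 2.5 h before IL-1β onwards. Alloxan served to block OGT, the enzyme that attaches O-GlcNAc to proteins. Cells had 5 mM alloxan during the first 30 min and 2 mM from then on, a schedule stated for alloxan together with GlcN and not separately for alloxan alone. Each of 3 separate experiments held 1 array of each condition, so n counts experiments with 1 cell line and not donors. The p-values set a mean difference against the spread from experiment to experiment, pooled over all 5 conditions and drawn toward the spread of all genes. They do not rest on the SD of the single comparison printed beside them. Having 3 experiments limits the precision.

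Values were the log2 signals deposited by the authors, and levels compare only within an experiment. The median signal of an array was 6.18 to 6.21 in experiment 1, 7.14 to 7.19 in experiment 2 and 7.49 to 7.54 in experiment 3. Conditions were therefore compared in limma with the experiment as a block, over all genes, and a gene passed at a Benjamini-Hochberg adjusted p under 0.05. Errors are the SD of the 3 differences taken within an experiment. Without the block, which counts the level of an experiment as error and gave a standard error of 0.596 log2 units, 0 of the 10 enzymes passed in any comparison. Of all genes tested, 3 were then higher and 1 lower with GlcN, and 0 passed in the other comparisons. In that limma fit PHGDH, PSAT1, ALDH1L2 and ASNS had an unadjusted p under 0.05 for GlcN, and ALDH1L2 and ASNS for GlcN in the presence of alloxan. All genes shared that standard error, so these p-values rank genes by the size of the difference and hold no spread of the single gene. With the block but only the groups compared in the fit, 0 of the 10 passed as well. For the 7 enzymes called with GlcN the limma adjusted p then lay between 0.0620 and 0.108. The share of all genes passing in that fit is not given here, so lost calls cannot be told from a loss over all genes. Deposited values repeat between arrays of an experiment. In experiments 1, 2 and 3, 22.4%, 13.9% and 18.0% of all clusters held the same value on the IL-1β and GlcN arrays, so a difference of exactly 0 says only that the deposited values were equal.

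The label of the cells was set against marker genes. Of 9 fibroblast markers, 8 were tested and PRG4, the lubricin gene, lay below the filter. With GlcN, 5 of the 8 fell (COL1A1, COL1A2, COL3A1, THY1 and FAP), where 6.62% of all genes tested fell and 5.29% rose. With alloxan 4 of the 8 fell (COL1A1, COL1A2, COL3A1 and FAP), where 7.21% of all genes tested fell. The mean log2 level of the 8 markers, centred within the experiment, ranged from 0.21 to 0.35 with IL-1β alone, from -0.25 to -0.05 with GlcN, from -0.10 to -0.01 with alloxan, and from -0.33 to -0.15 with both. Of the macrophage, endothelial and epithelial markers, 9 were tested and 0 passed with GlcN in limma, though CD68 at -0.15 and CD163 at 0.09 log2 units had an unadjusted p under 0.05, and the leukocyte genes PTPRC and AIF1 lay below the filter. In the other comparisons the epithelial gene CDH1 fell with alloxan, by 0.41 log2 units, the endothelial gene VWF fell with alloxan added to GlcN, by 0.19, and the epithelial gene KRT8 fell with GlcN in the presence of alloxan, by 0.32 (limma adjusted p = 0.0443, 0.0373 and 0.0383). All arrays came from the MH7A line and not from a mixed tissue. In its bulk RNA, fewer cells with a marker and less marker RNA per cell cannot be told apart. The part of these shifts in the results below was not tested.

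GlcN raised enzymes of all 4 roles in IL-1β-stimulated cells, and the highest differences were those of ALDH1L2 and ASNS. Of the 10 enzymes 7 rose, 0 fell and 3 did not pass, where 5.29% of all genes tested rose and 6.62% fell. The median log2 difference of the 10 was 0.85, against 0.0069 over all genes. The 7 that rose were PHGDH, PSAT1, SHMT2, MTHFD2, MTHFD1L, ALDH1L2 and ASNS, each higher in 3 of 3 experiments. SHMT1, MTHFD1 and PSPH did not pass.

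**Figure D1:**
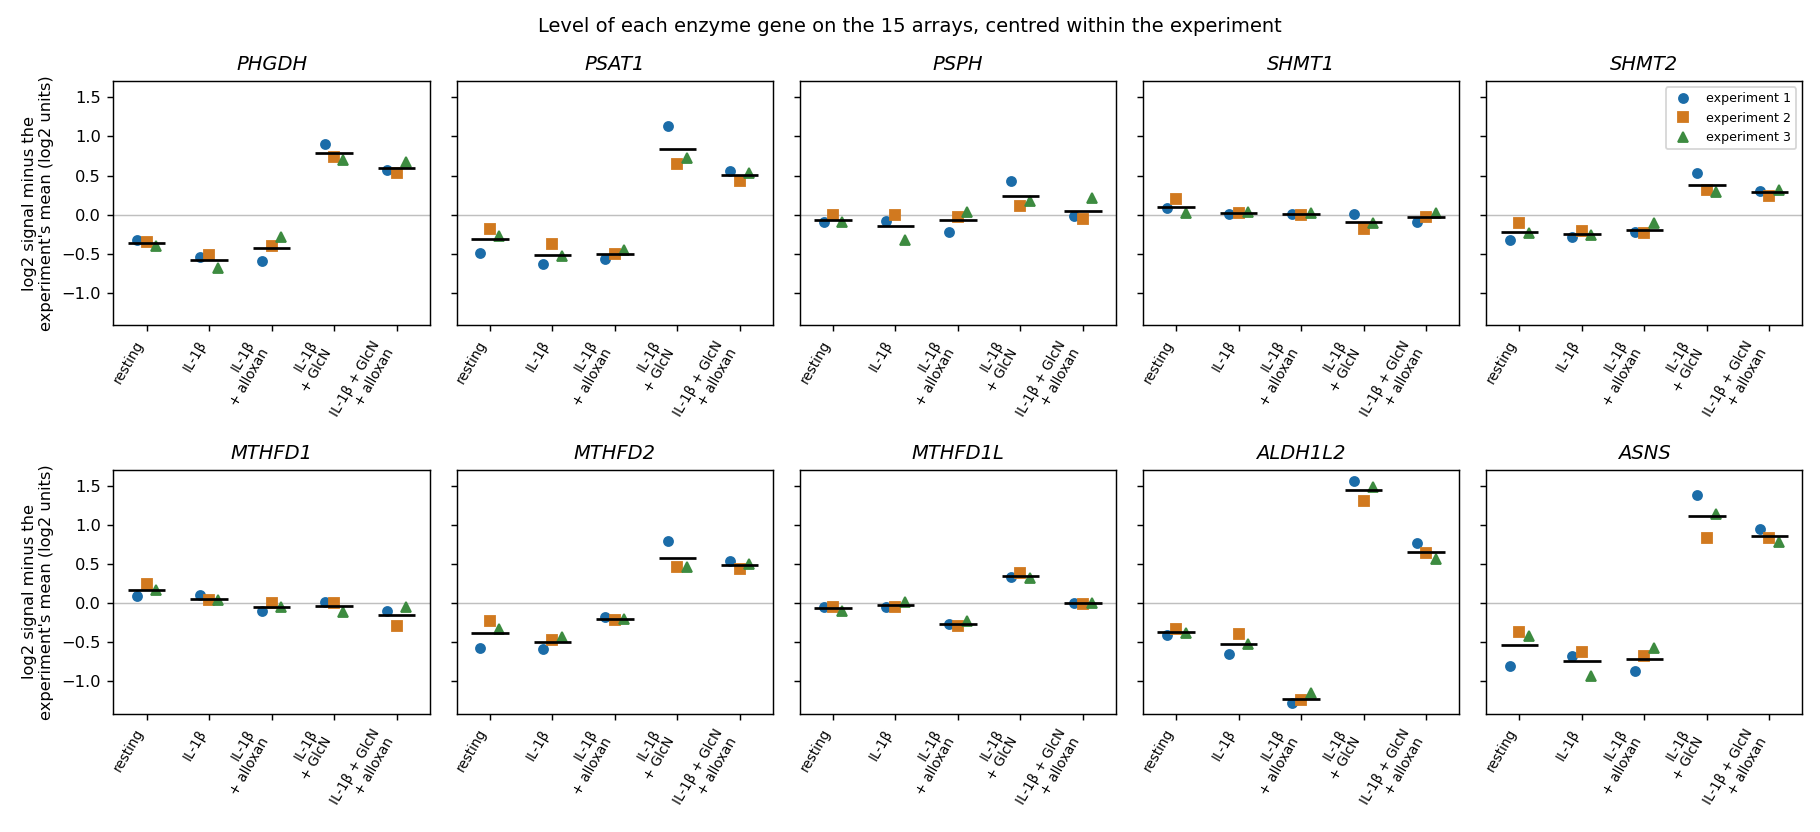
Log2 signal of the 10 enzyme genes on each of the 15 arrays, minus the mean of the gene over the 5 arrays of that experiment; symbols mark the 3 experiments and bars their mean. ALDH1L2 and ASNS stand highest with GlcN, at centred means of 1.46 and 1.12, and ALDH1L2 stands lowest with alloxan alone, at -1.22, while SHMT1 and MTHFD1 stay between -0.15 and 0.17 in every condition mean.

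The first enzymes of serine synthesis were both more than 2-fold higher with GlcN. PHGDH, the dehydrogenase that opens the pathway, had log2 signals of 10.11, 11.22 and 11.09 with IL-1β alone in experiments 1, 2 and 3, and of 11.56, 12.48 and 12.47 with GlcN. The GlcN array was the higher in each experiment, and once the level of the experiment was taken out the groups did not overlap. The log2 difference was 1.36 ± 0.09 (SD, n = 3, limma adjusted p = 3.43e-06), a fold of 2.58 with a 95% interval from 2.27 to 2.92. PSAT1, the aminotransferase of the next step, read 9.05, 10.57 and 10.36 log2 units with IL-1β alone and 10.83, 11.59 and 11.61 with GlcN. Experiment 1 gave the widest gap for PSAT1. Its log2 difference was 1.35 ± 0.39 (SD, n = 3, limma adjusted p = 5.42e-05), with 1.78 in experiment 1 and 1.02 and 1.25 in the others.

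PSPH, the phosphatase of the last step, gave a different reading from each of its clusters. On the cluster used, the log2 signal was 8.23, 9.39 and 9.38 with IL-1β alone and 8.74, 9.52 and 9.88 with GlcN. The difference was positive in 3 of 3 experiments at 0.38 ± 0.22 log2 units (SD, n = 3), and just missed the threshold (limma adjusted p = 0.0506). It passed with a filter at the 50th percentile (limma adjusted p = 0.0320) and with quantile normalization (limma adjusted p = 0.0316), among other settings. On the dimmer cluster the difference was 0.57 ± 0.17 (SD, n = 3, limma adjusted p = 0.0004, put in place of the other cluster in the same fit). The dimmer cluster also passed as lower with alloxan, at -0.23 ± 0.06, and as lower when alloxan was added to GlcN, at -0.44 ± 0.13, where the cluster used gave 0.07 ± 0.26 and -0.19 ± 0.24 (SD, n = 3 each). It passed as higher with GlcN in the presence of alloxan too, at 0.36 ± 0.14 (SD, n = 3, limma adjusted p = 0.0156), where the cluster used gave 0.12 ± 0.12. Which cluster follows the PSPH transcript more closely was not tested.

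Of the serine cleavage enzymes SHMT2 rose and SHMT1 did not pass. SHMT2, which splits serine into glycine in the mitochondrion, went from 11.18, 12.12 and 12.21 log2 units with IL-1β alone to 11.99, 12.64 and 12.76 with GlcN. The GlcN array was above the IL-1β array by 0.53 to 0.81 in every experiment, and the mean difference was 0.63 ± 0.16 (SD, n = 3, limma adjusted p = 0.0002995). SHMT1, its cytosolic counterpart, held 7.41 on both arrays of experiment 1 and was lower with GlcN in the other experiments, by 0.19 and 0.14 log2 units. Its mean difference was -0.11 ± 0.10 (SD, n = 3, limma adjusted p = 0.271), with a 95% interval from -0.24 to 0.02. The difference between the changes, SHMT2 minus SHMT1 on the same arrays, was 0.74 ± 0.06 log2 units (SD, n = 3), positive in 3 of 3 experiments.

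Among the folate enzymes MTHFD2 and MTHFD1L rose, while MTHFD1 did not pass. MTHFD2, the mitochondrial dehydrogenase and cyclohydrolase, read 9.67, 10.72 and 10.95 log2 units with IL-1β alone and 11.06, 11.65 and 11.84 with GlcN. MTHFD1L, the mitochondrial formyltetrahydrofolate synthetase, read 8.12, 9.39 and 9.67 log2 units and 8.50, 9.82 and 9.97. Both genes were higher with GlcN in each experiment and did not overlap after centring. The log2 differences were 1.07 ± 0.28 for MTHFD2 (SD, n = 3, limma adjusted p = 6.56e-05) and 0.37 ± 0.06 for MTHFD1L (SD, n = 3, limma adjusted p = 0.000116). MTHFD1, which carries out these steps in the cytosol in 1 protein, had a difference of -0.09 ± 0.06 (SD, n = 3, limma adjusted p = 0.476, 95% interval -0.24 to 0.06). It was negative in 3 of 3 experiments.

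Within an array, MTHFD2 moved more than MTHFD1 by 1.16 ± 0.27 log2 units with GlcN, and MTHFD1L more than MTHFD1 by 0.46 ± 0.0030 (SD, n = 3 each). For MTHFD1L the gap was 0.4614, 0.4591 and 0.4650 in the 3 experiments, so it varied by less than the change of either gene. Upstream, PHGDH moved more than PSPH by 0.99 ± 0.14 and PSAT1 more than PSPH by 0.97 ± 0.27 log2 units (SD, n = 3 each). All 5 pairs were positive in 3 of 3 experiments, also in the presence of alloxan. Each pair set an enzyme that passed with GlcN against one that did not, so the positive signs are not separate evidence. An exact two-sided sign permutation test over 3 experiments cannot go below 0.25, and no other test of these 5 pairs was run. Such a gap describes the size of an unequal change and does not show that MTHFD1, SHMT1 or PSPH did not change.

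ALDH1L2, the mitochondrial formyltetrahydrofolate dehydrogenase, had the largest difference of the 10. Its log2 signal was 7.67, 8.96 and 9.01 with IL-1β alone and 9.89, 10.66 and 11.03 with GlcN. It was higher by 1.70 to 2.22 in every experiment, a mean of 1.98 ± 0.26 (SD, n = 3, limma adjusted p = 4.31e-07), or 3.95-fold with a 95% interval from 3.47 to 4.49. By p it stood in place 3 among all 16872 genes. The cytosolic paralogue ALDH1L1 had a log2 difference of 0.11 ± 0.13 (SD, n = 3) and did not pass. ALDH1L1 was named after its value was seen.

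ASNS, which makes asparagine from aspartate and glutamine, was the other enzyme more than 3-fold higher. Its log2 signal was 7.79, 8.75 and 8.54 with IL-1β alone and 9.85, 10.21 and 10.60 with GlcN. Experiment 2 gave the smallest gap, at 1.46 log2 units, and experiments 1 and 3 gave 2.06 and 2.07. The mean difference was 1.86 ± 0.35 (SD, n = 3, limma adjusted p = 2.45e-05), a fold of 3.64 with a 95% interval from 2.88 to 4.59.

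The promoters were read for the core letters of the element at which ATF4 binds with C/EBP partners, because 7 of the 10 enzymes rose together. RefSeq windows from 250 bases before to 50 bases after a start, on GRCh38.p14, were at hand for 7 of the 10 genes, in 11 windows. PSPH, SHMT2 and ALDH1L2 were not in that table. TGATGNAA, on either strand (reverse TTNCATCA), was found in ASNS and MTHFD1L, and it is held by 3.62% of all 35116 windows and by 4.46% of 27305 genes. The stretches around the match are shown 5′ to 3′ on the strand of the gene with the match in capitals. The ASNS stretch is chr7:97872447-97872498 on the minus strand. Its match starts 68 bases before a start and is absent from the second ASNS window. The MTHFD1L stretch is chr6:150866346-150866375 on the plus strand. Its match starts 129 or 90 bases before, or 24 bases after, the starts of 3 of its 4 windows.
ASNS: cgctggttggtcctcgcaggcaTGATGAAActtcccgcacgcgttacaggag
MTHFD1L: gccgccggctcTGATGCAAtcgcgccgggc
A match is a run of letters and not evidence of binding, and a window without it says only that these letters are not there. PHGDH, PSAT1 and MTHFD2, which rose, and SHMT1 and MTHFD1, which did not pass, had windows without a match.

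The same 7 enzymes rose with GlcN when alloxan was also present. This comparison was GlcN with alloxan against alloxan alone. Its differences use none of the arrays of the comparison above but come from the same 3 experiments. Its p-values rest on the spread pooled over all 5 conditions, with the IL-1β and GlcN arrays included. The 7 calls are therefore not independent of those arrays. With only the groups compared in the fit, the limma adjusted p of these 7 enzymes lay between 0.0631 and 0.0737. Of the 10 enzymes 7 rose, 0 fell and 3 did not pass, where 1.86% of all genes tested rose and 1.67% fell, and 7 were shared with the 7 called without alloxan. The median log2 difference of the 10 was 0.58, against -0.01 over all genes. The count fell to 5 without experiment 1, to 3 without experiment 2 and to 3 without experiment 3. The shares of all genes that passed in these smaller fits are not given here. PHGDH, ALDH1L2 and ASNS passed whichever experiment was left out, and the same 7 enzymes passed without any 1 array.

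With alloxan present, ALDH1L2 differed by 1.88 ± 0.16 and ASNS by 1.57 ± 0.24 log2 units (SD, n = 3 each, limma adjusted p = 1.13e-06 and 0.000213). ALDH1L2 went from 7.05, 8.12 and 8.38 log2 units with alloxan alone to 9.09, 9.99 and 10.09 with both agents. ASNS went from 7.59, 8.70 and 8.88 log2 units to 9.42, 10.21 and 10.25. In both genes every array with GlcN was above the alloxan array of its experiment. PHGDH differed by 1.02 ± 0.13 and PSAT1 by 1.02 ± 0.09, and the mitochondrial enzymes MTHFD2, SHMT2 and MTHFD1L by 0.69 ± 0.03, 0.48 ± 0.06 and 0.26 ± 0.02 log2 units (SD, n = 3 each). The enzymes that did not pass were PSPH at 0.12 ± 0.12 on the cluster used, SHMT1 at -0.04 ± 0.06 and MTHFD1 at -0.10 ± 0.16 (SD, n = 3 each).

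**Figure D2:**
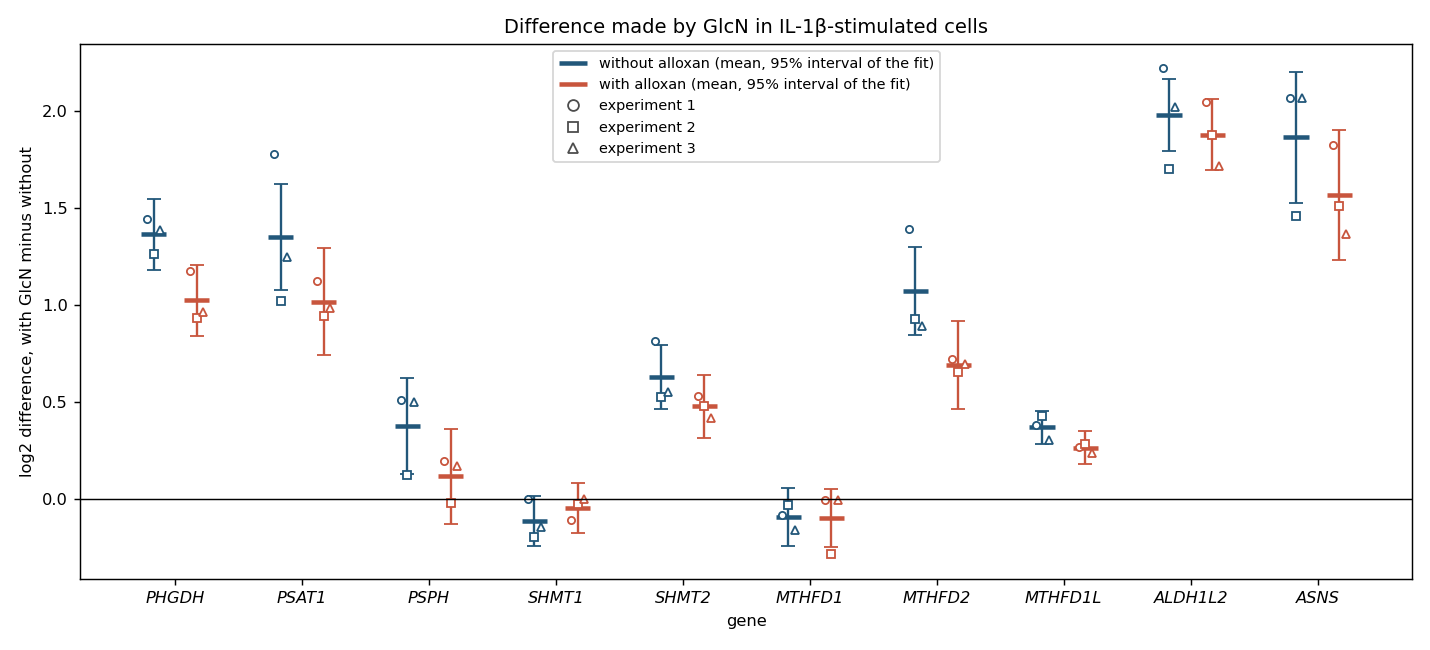
Log2 difference with GlcN minus without it, for each enzyme, in IL-1β-stimulated cells without alloxan and with alloxan; open symbols are the 3 experiments, thick bars their mean and thin bars the 95% interval of the limma fit. The 7 called genes lie above 0 in both arms in every experiment, with means from 0.26 to 1.98, and the means with alloxan are the lower ones for all genes but SHMT1.

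The GlcN difference was lower with alloxan for 9 of the 10 enzymes, and in no case did the difference between the arms pass. The interaction, GlcN difference with alloxan minus GlcN difference without it, was called higher in 0 and lower in 0 of the 10, where 0.0119% and 0.0593% of all genes tested were called. Over all genes tested, 43.36% had an interaction above 0. The interaction subtracts the same GlcN difference by which enzymes were called above, so a high value there lowers it, and the 9 signs are not separate evidence. At an unadjusted p under 0.05, 923 of all 16872 genes were higher and 937 lower, and PHGDH and MTHFD2 were among the lower ones. PHGDH had an interaction of -0.34 ± 0.08 log2 units (SD, n = 3, limma adjusted p = 0.366), with -0.27, -0.33 and -0.42 in experiments 1, 2 and 3. MTHFD2 had -0.38 ± 0.25 (SD, n = 3, limma adjusted p = 0.388), with -0.67 in experiment 1 and -0.27 and -0.20 in the others. The other MTHFD2 cluster gave -0.175 ± 0.469 (SD, n = 3, limma adjusted p = 0.688), of mixed sign over the experiments. For ALDH1L2 the interaction was -0.10 ± 0.25 with a 95% interval from -0.36 to 0.16, and for ASNS -0.30 ± 0.38 with an interval from -0.77 to 0.18 log2 units. A p that misses the threshold does not show that GlcN acted alike in both arms.

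Alloxan lowered both ALDH1L2 and MTHFD1L, with or without GlcN. Against IL-1β alone, 2 of the 10 fell and 0 rose, where 7.21% of all genes tested fell and 6.13% rose. When alloxan was added to GlcN, 2 of the 10 fell and 0 rose, where 3.52% of all genes fell and 3.27% rose, and the 2 genes were the same. The former comparison shares its IL-1β arrays with the GlcN comparison, and the latter shares the GlcN arrays. Alloxan alone is also the control of GlcN in the presence of alloxan. The median log2 difference of the 10 was 0.02 for alloxan alone, against 0.01 over all genes, and -0.19 for alloxan added to GlcN, against -0.0069.

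ALDH1L2 fell from 7.67, 8.96 and 9.01 log2 units with IL-1β alone to 7.05, 8.12 and 8.38 with alloxan, a log2 difference of -0.70 ± 0.12 (SD, n = 3, limma adjusted p = 0.000432). In GlcN-treated cells it fell by 0.80, 0.66 and 0.93 in the 3 experiments, a mean of -0.80 ± 0.14 (SD, n = 3, limma adjusted p = 0.000450). With both agents its level was still above that of resting cells by 1.03 ± 0.13 log2 units (SD, n = 3). Without experiment 3 the difference in GlcN-treated cells was -0.73 and did not pass (limma adjusted p = 0.0634). MTHFD1L was lower with alloxan by 0.22, 0.24 and 0.24 log2 units in experiments 1, 2 and 3, a mean of -0.24 ± 0.01 (SD, n = 3, limma adjusted p = 0.00248). Without experiment 1 it did not pass (limma adjusted p = 0.0548).

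In GlcN-treated cells MTHFD1L was lower with alloxan by -0.34 ± 0.04 (SD, n = 3, limma adjusted p = 0.000594). It then stood 0.029 ± 0.028 log2 units (SD, n = 3) above IL-1β alone, a gap about as wide as its spread and positive in 2 of 3 experiments. Its log2 signal with both agents was 8.17, 9.43 and 9.66, against 8.12, 9.39 and 9.67 with IL-1β alone and 8.50, 9.82 and 9.97 with GlcN. MTHFD1L had thus the same order of conditions in all 3 experiments at the top and the bottom, with GlcN highest and alloxan alone lowest.

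**Figure D3:**
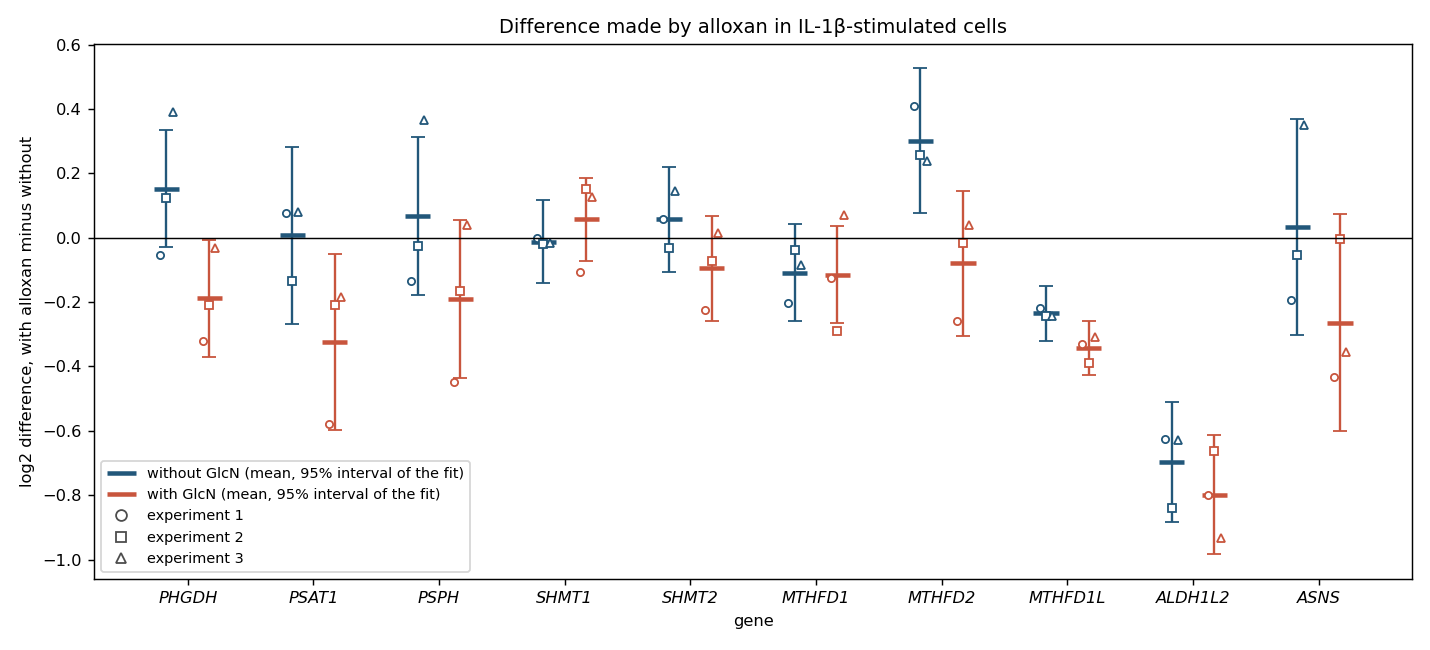
Log2 difference with alloxan minus without it, for each enzyme, in IL-1β-stimulated cells without GlcN and with GlcN; open symbols are the 3 experiments, thick bars their mean and thin bars the 95% interval of the limma fit. ALDH1L2 and MTHFD1L lie below 0 in both arms in every experiment, at means of -0.70 and -0.80 and of -0.24 and -0.34, and no other enzyme passed in either arm.

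The other 8 enzymes did not pass with alloxan on the clusters used. PSPH passed as lower with alloxan added to GlcN as the mean over its clusters, at -0.32 log2 units (limma adjusted p = 0.0349), which made 3 enzymes lower in that comparison. MTHFD2 had the highest value, 0.30 ± 0.09 log2 units against IL-1β alone (SD, n = 3, limma adjusted p = 0.0800), positive in 3 of 3 experiments. It passed with quantile normalization (limma adjusted p = 0.0216), and also without resting replicate 1 or without GlcN replicate 1 (limma adjusted p = 0.0395 and 0.0208), whereas its other cluster gave 0.02 ± 0.19 (SD, n = 3). ASNS was at 0.03 ± 0.28 and PSAT1 at 0.0069 ± 0.12 log2 units, both of mixed sign over the experiments (SD, n = 3 each). When alloxan was added to GlcN, PSAT1 was at -0.32 ± 0.22, ASNS at -0.26 ± 0.23 and PHGDH at -0.19 ± 0.15 log2 units, each negative in 3 of 3 experiments (SD, n = 3, limma adjusted p = 0.1504, 0.342 and 0.208).

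IL-1β itself moved none of the enzymes past the threshold. Against resting cells 0 of the 10 rose and 0 fell in limma, where 0% of all genes tested rose and 0% fell. At an unadjusted p under 0.05, 491 of all genes were higher and 486 lower, and PHGDH was the only one of the 10 among them. Of the 10 differences 9 were negative, with a median of -0.11 against 0.00 over all genes. PHGDH was lower by 0.21, 0.17 and 0.27 log2 units in experiments 1, 2 and 3, a mean of -0.22 ± 0.05 (SD, n = 3, limma adjusted p = 0.774). PSAT1 at -0.20 ± 0.06, ALDH1L2 at -0.15 ± 0.09 and MTHFD2 at -0.12 ± 0.11 log2 units were lower in 3 of 3 experiments too (SD, n = 3 each). ASNS was at -0.21 ± 0.31, with 0.12 in experiment 1 and -0.25 and -0.50 in the others.

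The order of the 5 conditions differed between the enzymes. In PHGDH, PSAT1, ALDH1L2 and ASNS, GlcN stood highest, GlcN with alloxan next and resting cells after these. In SHMT2 and MTHFD2 the 2 GlcN conditions were also the highest and differed by less than the spread, at 0.09 ± 0.12 and 0.08 ± 0.16 log2 units. ALDH1L2 was the only enzyme in which each of the 5 conditions stood apart from its neighbours by more than the SD and in 3 of 3 experiments. SHMT1 and MTHFD1 ran the other way, with resting cells highest. Their resting level exceeded that with IL-1β alone by 0.08 ± 0.10 and 0.11 ± 0.11 log2 units, within the spread (SD, n = 3 each). In PSPH none of the neighbouring conditions differed beyond the spread.

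Centred log2 values of the enzymes were compared over the 15 arrays as a description, since the arrays share treatments and experiments. Over the 45 pairs of enzymes, Pearson's r ran from -0.58, for PHGDH with SHMT1, to 0.99, for PSAT1 with ASNS. Among all other genes tested, ASNS was closest to XPOT and DNAJC3 (r = 0.984 each) and AARS1 (r = 0.983), a tRNA exporter, an endoplasmic reticulum co-chaperone and the alanyl-tRNA synthetase. PHGDH was closest to DNAJC3 and AARS1 (r = 0.983 each) and CDK2AP2 (r = 0.976). MTHFD2 was closest to CEBPG (r = 0.986), a C/EBP-family factor, to SARS1 (r = 0.980), the seryl-tRNA synthetase, and to DDIT3 (r = 0.980), which encodes CHOP. The log2 difference of these genes with GlcN ran from 0.81 for SARS1 to 2.22 for DDIT3.

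Genes on either side of the enzymes in metabolism moved in both directions with GlcN. They are set beside the 5.29% of all genes tested that rose and the 6.62% that fell, and no test compared their counts with those of the enzymes. The lists were drawn up by pathway and are described by their counts. Of 6 tested genes of mitochondrial folate transport and glycine cleavage, 1 rose and 0 fell, with a median log2 difference of -0.10. The gene that rose was AMT, the aminomethyltransferase of the glycine cleavage system, at 0.18 ± 0.03 log2 units (SD, n = 3, limma adjusted p = 0.0342). SLC25A32, the mitochondrial folate carrier, was at -0.22 ± 0.17, MTHFD2L, the paralogue of MTHFD2, at -0.23 ± 0.24, and MTFMT, which formylates the mitochondrial initiator tRNA, at 0.16 ± 0.08, and these did not pass (SD, n = 3 each).

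Of 13 tested genes of cytosolic folate and nucleotide synthesis, 0 rose and 1 fell, with a median of -0.04. SLC19A1, the reduced folate carrier, fell by 0.16 log2 units (SD 0.03, n = 3, limma adjusted p = 0.0219), though it did not pass when arrays were shifted to equal medians (limma adjusted p = 0.0833). Thymidylate synthase TYMS was at -0.18 ± 0.14, FPGS, which adds glutamates to folate, at -0.14 ± 0.13, and the proton-coupled folate transporter SLC46A1 at -0.14 ± 0.12 log2 units, without passing (SD, n = 3 each). Of 10 genes that use serine or glycine, 0 passed in limma in either direction, 0 had an unadjusted p under 0.05, and the differences lay between -0.10 and 0.08. They included PTDSS1 and PTDSS2 of phosphatidylserine synthesis, at -0.10 ± 0.13 and 0.06 ± 0.06, SPTLC1 of sphingolipid synthesis, at 0.07 ± 0.09, and AGXT2 at 0.08 ± 0.13 log2 units (SD, n = 3 each).

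Of 10 tested genes of asparagine, aspartate and glutamine handling, 3 rose and 0 fell, with a median of 0.08. They were ASS1, which joins aspartate to citrulline, at 0.71 ± 0.38, the cytosolic aspartate aminotransferase GOT1 at 0.58 ± 0.24, and the asparaginyl-tRNA synthetase NARS1 at 0.35 ± 0.27 log2 units (SD, n = 3, limma adjusted p = 0.0184, 0.00136 and 0.0327). ASRGL1, an asparaginase, was at 0.09 ± 0.10 and did not pass. With alloxan present, GOT1 passed again, at 0.48 ± 0.08 (SD, n = 3, limma adjusted p = 0.0106), and ASS1 at 0.28 ± 0.47 and NARS1 at 0.26 ± 0.09 did not.

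ASNS belongs to the enzymes that take their nitrogen from the amide of glutamine, and the other members of that class moved in both directions. Of 7 tested, 1 rose and 3 fell with GlcN, with a median of -0.15. GFPT1, the entry enzyme of the hexosamine pathway, rose by 0.44 ± 0.23 log2 units (SD, n = 3, limma adjusted p = 0.00340). PPAT and PFAS of purine synthesis and CTPS1 of CTP synthesis fell, with log2 differences of -0.42 ± 0.16, -0.22 ± 0.10 and -0.37 ± 0.10 (SD, n = 3, limma adjusted p = 0.0229, 0.0207 and 0.00879).

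Of 4 tested genes of lower glycolysis, from which serine synthesis branches off, 0 rose and 2 fell, with a median of -0.21. PGK1 and PKM, the kinases before and after the branch point, had log2 differences of -0.28 ± 0.10 and -0.27 ± 0.07 (SD, n = 3, limma adjusted p = 0.00756 and 0.0226). ENO1 at -0.15 ± 0.08 and GAPDH at 0.01 ± 0.02 log2 units did not pass (SD, n = 3 each). Some of the calls in these lists rested on single arrays or experiments. Over 18 settings that left out an array or an experiment, AMT lost its call in 9, SLC19A1, NARS1 and PKM in 8, PFAS and PPAT in 7, ASS1 in 6, PGK1 in 3, GFPT1 and CTPS1 in 2 and GOT1 in 0. Without the block none of the list genes named here passed in limma.

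**Figure D4:**
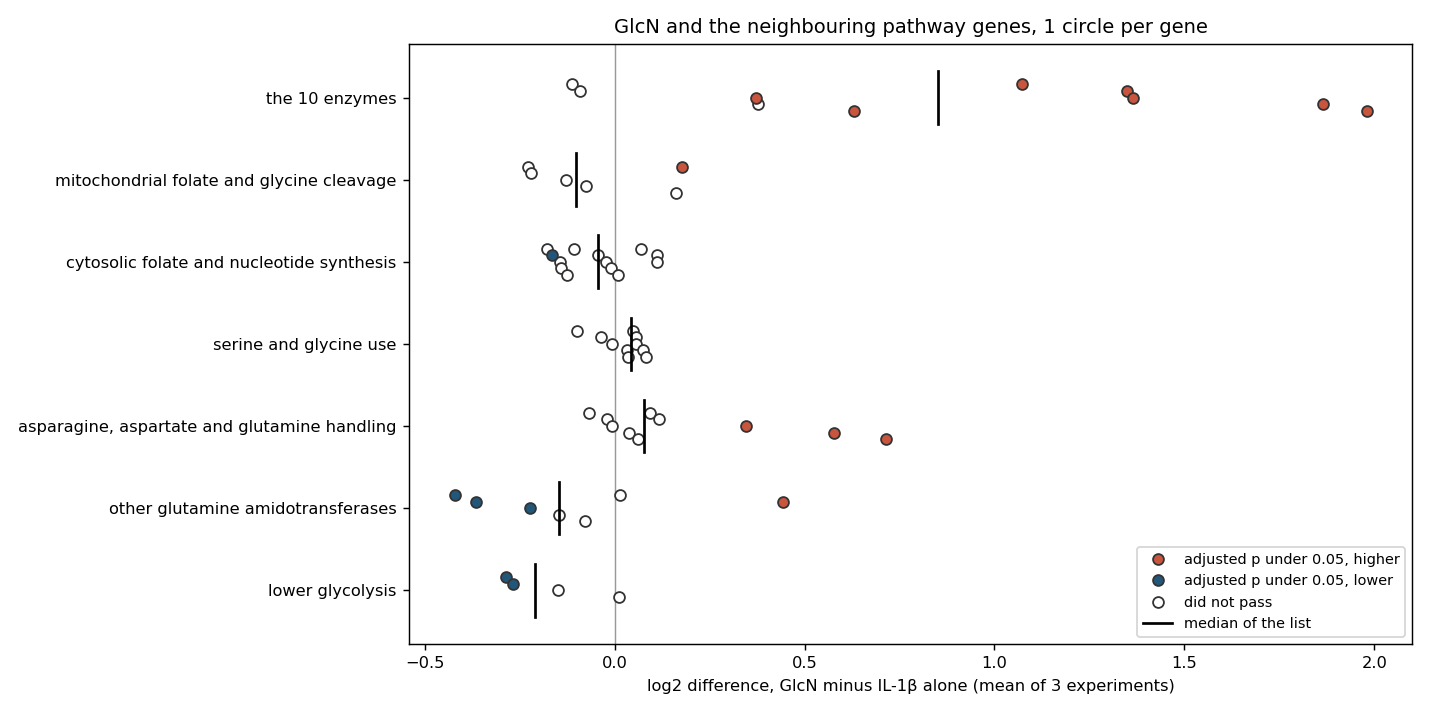
Log2 difference of GlcN minus IL-1β alone for the 10 enzymes and for the tested genes of 6 neighbouring pathway lists, 1 circle per gene at the mean of 3 experiments; filled circles passed at a limma adjusted p under 0.05 and vertical bars are list medians. The 10 enzymes have a median of 0.85, and the lists have medians between -0.21 and 0.08.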

How the data were processed

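The authors hybridised cDNA to Human Gene 1.0 ST arrays and deposited log2 values per transcript cluster, computed by RMA in Affymetrix Expression Console (version not given in the sources used here). Groups and experiment numbers came from the labels. Clusters were named from the platform annotation, and those with several symbols were left out, among them 5 shared by an enzyme and another gene. Of the clusters of a gene the one with the highest mean was kept, and it was tested if at least 3 of the 15 arrays showed it at or above their 20th percentile. limma 3.58.1 in R 4.3.3 (lmFit, eBayes; two-sided) was run with the experiment as a block and tested on simulated data. The block was used because the labels number the experiments and the 30 pairs of arrays with equal numbers shared their deviation from the condition means, at r between 0.62 and 0.85. The 60 pairs differing in both number and condition gave r between -0.66 and -0.07. The methods' t-test was unpaired and ran on values with a further normalization that was not repeated here. Named genes are the 10 enzymes, up to 4 per list with the smallest p for GlcN, and the 3 genes most correlated with ASNS, PHGDH and MTHFD2. The members and lists were chosen with earlier results of these data known. Alternatives were other filters, normalizations, moderation, cluster means, tests and arrays left out. Leaving out whole experiments and using the other clusters were added after seeing the data. Figures were drawn with matplotlib 3.10.9 in Python 3.11.15.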

Additional observations from a re-analysis of the deposited data

How the results depend on the processing

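Every call on the 10 enzymes rested on taking the experiment as a block and on the spread of all 5 conditions. The counts of 7 enzymes higher with GlcN, 7 higher with GlcN in the presence of alloxan, 2 lower with alloxan and 2 lower with alloxan added to GlcN each became 0 with no replicate block, 0 over only the groups compared and 0 with the methods' t-test after adjustment. After adjustment that test passed 0 of all genes in these comparisons, so no enzyme could be told from the rest by it. Here that test was run on the deposited values, which still held the level of the experiment. Unadjusted and at 1.5-fold, it gave 3, 2, 0 and 0 enzymes, where 25, 8, 5 and 3 of all genes were counted in those directions. At that cut-off, on its own normalized values, the paper lists PHGDH, PSAT1, SHMT2, MTHFD2, ALDH1L2 and ASNS as raised by GlcN. Its counts and those given here are therefore not alike. Fewer arrays set the spread over only the groups compared. How many of all genes passed there is not given here, and the cause was not tested otherwise. Quantile normalization gave 1 enzyme higher with alloxan alone, in place of 0. Leaving out 1 array or 1 experiment at a time gave 3 to 7 enzymes higher with GlcN in the presence of alloxan, 0 to 1 higher and 1 to 2 lower with alloxan, and 1 to 2 lower with alloxan added to GlcN. The counts for GlcN, for IL-1β and for the interaction stayed within 1.5 times of the main count, or at 0, when arrays or experiments were left out.

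Values that changed sign had not passed. For alloxan alone, PSPH was -0.083 as the mean over its clusters and SHMT1 0.0070 with arrays shifted to equal medians. With arrays or experiments left out, the log2 differences ran for IL-1β from -0.15 to 0.0446 in PSPH, from -0.096 to 0.0454 in SHMT2 and from -0.0010 to 0.058 in MTHFD1L, and for GlcN from -0.0006 to 0.028 in GAPDH. For alloxan alone they ran from -0.070 to 0.0935 in PSAT1, from -0.080 to 0.17 in PSPH and from -0.12 to 0.15 in ASNS. For alloxan added to GlcN they ran from -0.15 to 0.0003 in SHMT2 and from -0.15 to 0.062 in MTHFD2, and for the interaction from -0.087 to 0.12 in MTHFD1 and from -0.24 to 0.0002 in ALDH1L2. Over all single genes and settings, 2078 values kept direction and side of the threshold, 138 no longer passed, 20 newly passed and 30 changed sign.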
